A study of Mus musculus with 35 samples.

Results

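The comparison asks how fibroblasts given the full 4-factor reprogramming set JEGS (Jdp2, Esrrb, Glis1 and Sall4) differed from fibroblasts given the same set without Glis1. It takes 6 of the 35 samples of the series: the 3 JEGS libraries, from days 2, 4 and 6, and the 3 JEGS-Minus-Glis1 libraries of the same days. The libraries are picked out by the factor set and day in their titles, a rule that uses no measured value.

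All samples were mouse embryonic fibroblasts from E13.5 embryos at passage 2, carrying an Oct4-GFP reporter of Pou5f1. The embryos came from Oct4-GFP transgenic males of CBA/CaJ and C57BL/6J background and 129 females. Cells were infected for 48 h with retroviruses carrying the factors and then kept in iCD3 medium with a Rock inhibitor, both groups alike. JEGS cells received the retroviruses for Jdp2, Esrrb, Glis1 and Sall4, and Minus-Glis1 cells received those for Jdp2, Esrrb and Sall4. The study has 5 arms, and 3 further arms lacked Esrrb, Jdp2 or Sall4 in place of Glis1. RNA sequencing gave 1 library per arm and day.

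Glis1 is a zinc finger transcription factor of the Gli-similar family, related to the Gli and Zic proteins that act in hedgehog signalling. It is known for raising the yield of induced pluripotent cells when added to other factors, and it is found in oocytes and the early embryo. Reprogramming of fibroblasts to pluripotency is known to involve loss of the fibroblast programme, faster division, and finally activation of the endogenous pluripotency network around Pou5f1, Sox2 and Nanog. The interferon response, the innate defence against viral nucleic acids, can also be active in cultured fibroblasts.

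Total expected counts ran from 1266379 to 1682386 in the JEGS libraries, from 1672386 to 2622470 in the Minus-Glis1 libraries and from 1434944 to 3608456 in the 9 libraries that lack another factor, on the same days. At this depth 1 count equalled 0.594 to 0.790 CPM (counts scaled to the size of the library) in JEGS and 0.381 to 0.598 CPM without Glis1. The mean fragment length overlapped narrowly, at 199.55 to 202.87 bases in JEGS and 202.19 to 206.51 bases without Glis1. The mitochondrial share of counts was 4.17% to 5.13% in JEGS and 5.21% to 5.86% without Glis1. JEGS libraries carry the mark of a second repeat in their deposited names, though not in their titles, and the others do not. The records also describe different library kits and sequencing runs without assigning them to libraries. A batch difference between the arms and the effect of Glis1 therefore cannot be told apart. Nothing in the labels ties the libraries of an arm to separate cultures. The p-values therefore reflect only how these libraries vary around a fit of arm and day. That spread may be technical, and it also holds any change of the gap between arms over days. In bulk RNA, fewer cells of a type and less RNA per cell cannot be told apart either. Fibroblast markers were mixed in both arms. Fn1, a matrix glycoprotein, was at 2147 to 2625 CPM in JEGS and 1650 to 1867 CPM without Glis1, and Col1a1 was at 207 to 224 and 281 to 296 CPM. Both were lower than in the day 0 library of the Minus-Glis1 arm, at 7703 CPM for Fn1 and 4844 CPM for Col1a1. Thy1 was at 17.5 to 25.5 CPM in JEGS and 17.4 to 19.2 CPM without Glis1, against 166 CPM in that day 0 library. Dcn, Lum and Fap were at 6.25 CPM or less in all 6 libraries and at 2.46 CPM or less on day 0, and Dpt and Tcf21 had no count in JEGS.

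The delivered factors came first, as the check of the titles. Glis1 was at 346, 204 and 84.3 CPM on days 2, 4 and 6 in JEGS and at 0, 0 and 1.14 CPM without it. The libraries labelled Minus-Glis1 thus lacked Glis1 as their titles say, although the treatment label lists all 4 factors for every sample. From the pooled counts, Glis1 was 444-fold higher in JEGS, with an exact 95% interval of 152 to 2158 that covers counting error only. The other 3 factors also differed between the arms. Jdp2, an AP-1 family repressor, was at 897, 580 and 257 CPM in JEGS against 3532, 3210 and 2530 CPM without Glis1, a log2 fold change of -2.54 ± 0.27 (SE; adjusted p = 1.42e-05). Esrrb, an orphan nuclear receptor of the pluripotency network, was at 2593, 1810 and 961 CPM against 6657, 6534 and 5630 CPM, a log2 fold change of -1.92 ± 0.29 (adjusted p = 0.000282). Sall4, a zinc finger factor of embryonic stem cells, was at 2982, 2111 and 1247 CPM against 4722, 4557 and 4016 CPM, a log2 fold change of -1.18 ± 0.19 (adjusted p = 0.000518). All 3 were lower in every JEGS library than in every Minus-Glis1 library. The Jdp2 levels without Glis1 also lay above the 9 other leave-out libraries, whose highest was 1394 CPM. Each difference described below therefore sits beside both the absence of Glis1 and higher levels of Jdp2, Esrrb and Sall4, which cannot be told apart here. In GRCm38, the build of the tables, Glis1 is the gene at chr4:107434591-107635061. Counts do not separate the retroviral transcript from the endogenous one.

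**Figure D1:**
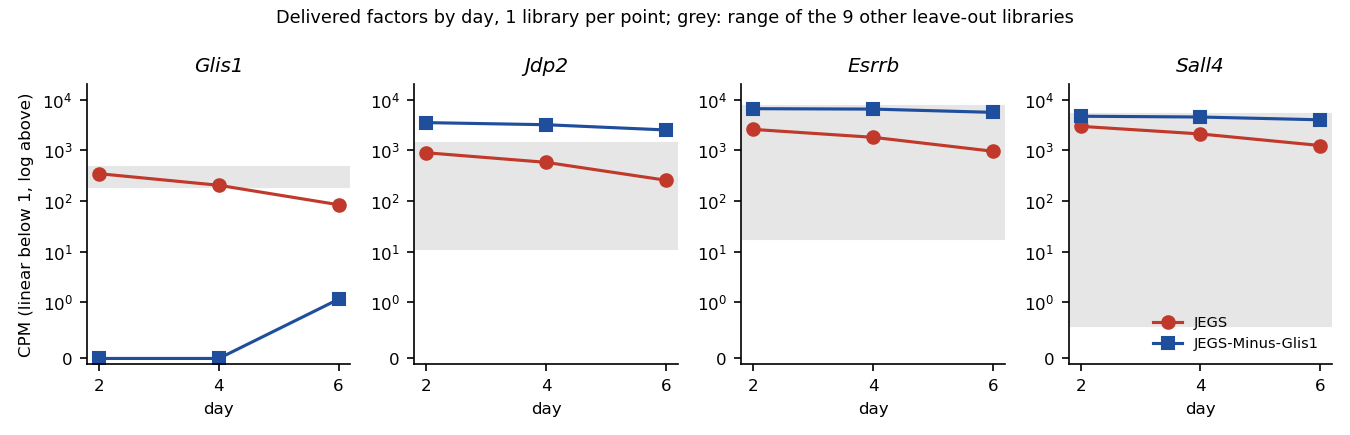
Level of each delivered factor in CPM (y axis, linear below 1 and logarithmic above) against day (x axis), for JEGS (red circles) and JEGS-Minus-Glis1 (blue squares), 1 library per point. Grey bands span the 9 libraries lacking another factor, 3 of which lack Jdp2, 3 Esrrb and 3 Sall4; Glis1 is near 0 without it, and the other 3 factors stand higher in the Minus-Glis1 libraries.

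Across the transcriptome the arms differed widely and about evenly in both directions. Of 16603 genes tested, 1637 (9.86%) were higher in JEGS and 1667 (10.0%) were lower, at an adjusted p under 0.05 by edgeR's quasi-likelihood test with day as a factor. The median log2 fold change (JEGS minus Minus-Glis1) over all genes tested was -0.01. The 3 JEGS values lay wholly above or below the 3 Minus-Glis1 values for 34.4% of genes. Genes were named below for large differences, so a lack of overlap in them adds no support. Differences over 4-fold were seen for 537 genes called higher and 431 called lower. The balance of directions moved with the unit: on log2(TPM + 1) with limma-trend 2399 genes passed, of which 59.9% were higher in JEGS, against 49.5% here, and the median of all genes moved to 0.10. Without the day 6 JEGS library 978 genes were higher and 963 lower. Without the day 4 Minus-Glis1 library 855 and 960 were, and without the day 6 Minus-Glis1 library 1086 were higher. Because the other leave-out arms lack another factor but hold Glis1, Minus-Glis1 was also set against them on the same days. In that contrast 2335 genes (14.1%) were higher without Glis1 and 1695 (10.2%) lower, and 1416 and 994 without the day 4 Minus-Glis1 library. It holds no JEGS library but shares the 3 Minus-Glis1 libraries with the first, so the 2 are not independent. Its values are given below for some lists and genes only.

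Many of the genes with the largest differences were silent in one arm. Among the 12 largest in each direction by the naming rule, the homeobox factor Tlx3 was at 12.4, 24.6 and 10.0 CPM in JEGS and had no count without Glis1. With a floor of 3 counts over the arm it was at least 35.6-fold higher. Likewise without a count there, Itih3, an inter-alpha-trypsin inhibitor chain, was at least 34.2-fold higher, the RNA-binding protein Rbm24 at least 24.4-fold and the interleukin receptor Il9r at least 23.4-fold. The insulin gene Ins2 was at 71.0, 148 and 77.5 CPM in JEGS against 0, 0 and 0.763 CPM, a ratio of 337 with a counting interval of 92.9 to 2793. C1ql2, a secreted C1q-like protein, was at 59.5, 94 and 31.9 CPM against 0, 0 and 0.381 CPM. Cilp, a matrix protein of cartilage, was at 42.5, 36.9 and 25 CPM against 0.60, 0 and 0 CPM. Each of these 7 genes was present in at least some of the 9 libraries lacking another factor, for example at 15.9 to 566 CPM for Ins2 and 1.91 to 28.0 CPM for Tlx3. The secreted Dcpp1 and Dcpp2 also stood among the 12, at least 57.2-fold higher for Dcpp1, but reads shared between these paralogs make their values uncertain.

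**Figure D2:**
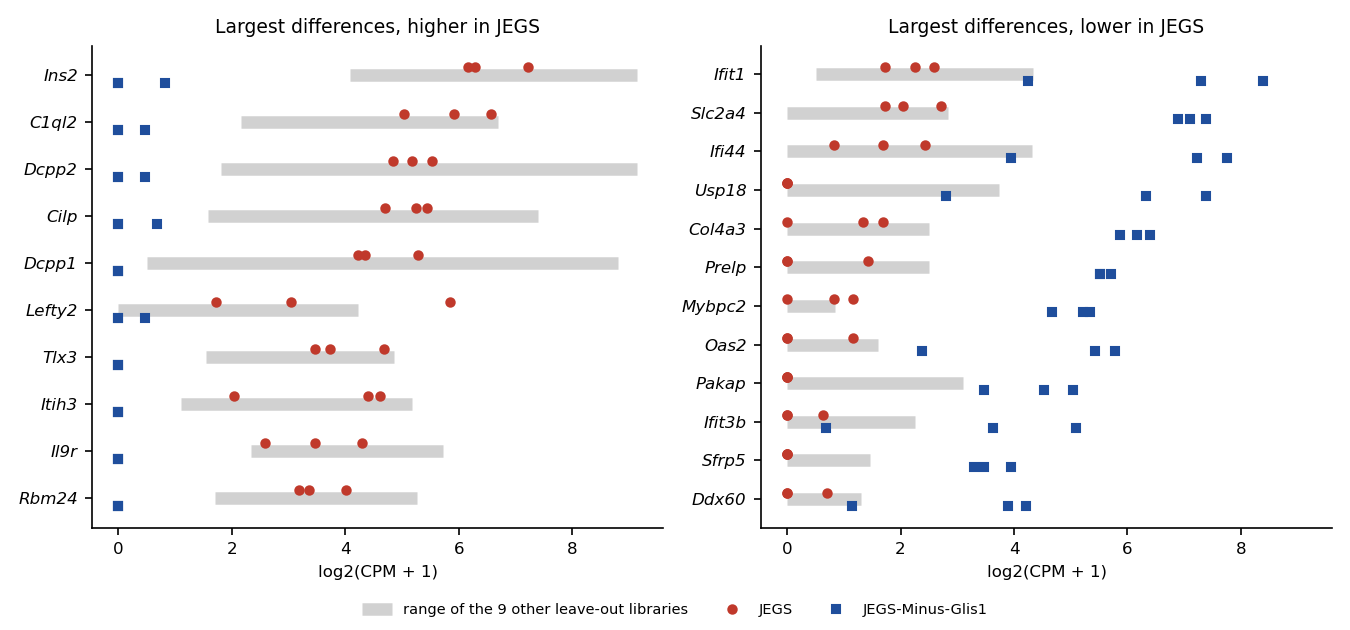
Levels as log2(CPM + 1) (x axis) of the leading genes in each direction by the naming rule, apart from those not reported here (y axis), in the 3 JEGS (red circles) and 3 JEGS-Minus-Glis1 (blue squares) libraries. Grey bars span the 9 libraries lacking another factor; in the left panel the JEGS points mostly lie within the bars and the Minus-Glis1 points at or near 0, and in the right panel the Minus-Glis1 points mostly lie beyond the bars.

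On the lower side, the largest differences mixed interferon response genes, described below, with muscle, matrix and transport genes. Slc2a4, the insulin-regulated glucose transporter, was at 2.32, 5.60 and 3.12 CPM in JEGS against 118, 166 and 136 CPM without Glis1, a log2 fold change of -5.19 ± 0.40 (adjusted p = 9.62e-07). The 9 other leave-out libraries held 0 to 6.13 CPM. Col4a3, a basement membrane collagen, was at 1.54, 2.24 and 0 CPM against 57.6, 82.9 and 71.3 CPM, and its neighbour in the same collagen network, Col4a4, at 1.54, 3.36 and 1.87 against 46.2, 51.5 and 30.9 CPM. The leucine-rich matrix protein Prelp was at 0, 1.68 and 0 CPM against 45.0, 51.0 and 45.0 CPM. Mybpc2, a myosin-binding protein of fast muscle, was at 0.772, 0 and 1.25 CPM against 39.6, 36.2 and 24.4 CPM. Sfrp5, a secreted Wnt antagonist, had no count in JEGS and was at least 16.6-fold lower there. In all 5 of these genes with counts on both sides the arms did not overlap, as in 34.4% of all genes. The other leave-out arms stood with JEGS, at no more than 6.13 CPM. Pakap also stood among the 12, at least 31.8-fold lower, but overlaps Palm2 and Akap2 on the same strand and is uncertain.

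Pluripotency genes were the group with the largest difference in favour of JEGS. Of 36 genes on the list, 33 were tested and 26 were higher in JEGS, with none lower, beside a background of 9.86%; the median log2 fold change was 4.38, or 4.30 with genes silent in one arm at their bound, against -0.01 over all genes tested. The gap between the arms was small on day 2 and wider later. The median log2 ratio, with 1 CPM added, was 0.15 on day 2, 2.62 on day 4 and 4.04 on day 6. Nanog, a homeobox factor of the core network, was at 6.95, 38.6 and 145 CPM on days 2, 4 and 6 in JEGS and at 0.60, 0 and 2.29 CPM without Glis1, a log2 fold change of 5.89 ± 0.87 (adjusted p = 0.000228). Pou5f1, the gene behind the reporter and chosen after its values were seen, was at 16.2, 104 and 372 CPM against 3.0, 3.49 and 6.10 CPM, a log2 fold change of 4.97 ± 0.81 (adjusted p = 0.000517). Both genes were higher in each JEGS library than in any Minus-Glis1 library, by the widest margin on day 6.

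Sox2, a partner of Pou5f1, was apart from the first day on. Sox2 was at 124, 102 and 202 CPM in JEGS and 0.60, 0.872 and 3.81 CPM without Glis1, a log2 fold change of 6.17 ± 0.40 (adjusted p = 3.35e-07), and the arms were already far apart on day 2. In the other leave-out arms Sox2 was at 25.3 to 90.9 CPM, and Minus-Glis1 was lower than those arms by a log2 fold change of -4.46 ± 0.38 (adjusted p = 3.33e-07). Nanog, by contrast, was at 0 to 14.7 CPM in those arms and gave -0.57 ± 1.61 (adjusted p = 0.848) in that contrast. Utf1, a chromatin factor of embryonic stem cells, was at 6.95, 15.1 and 116 CPM in JEGS against 0.60, 0 and 1.53 CPM, and Lefty2, an antagonist of Nodal, at 2.32, 7.28 and 56.2 against 0, 0 and 0.381 CPM. The call of Lefty2 was lost without day 6 in all arms, at an adjusted p of 0.0612 by edgeR. Of the 33 genes, 4 were higher and 4 lower in Minus-Glis1 than in the other leave-out arms, with a median of -0.51. The mean log2(CPM + 1) over the list on day 6 was 2.19 without Glis1, 1.53 without Sall4, 2.36 without Esrrb, 3.74 without Jdp2 and 5.87 in JEGS.

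A further 4 members, at 0 on day 2 in both arms and named after their values were seen, had no count in any Minus-Glis1 library: Dppa5a was at least 134-fold higher in JEGS, Dppa4 at least 29.5-fold, Gdf3 at least 29.0-fold and Dppa3 at least 18.3-fold. Dppa5a and Dppa3 are markers of naive pluripotent cells, and Gdf3 is a growth factor. All 4 calls were lost without the day 6 Minus-Glis1 library and under DESeq2, and that of Dppa4 also without the day 6 JEGS library. Klf5, Tbx3, Tet2, Nr0b1, Nr5a2, Lin28b and Otx2 did not pass. Klf5 was at 60.2, 86.8 and 94.96 CPM in JEGS and 39.6, 44.9 and 69.0 CPM without Glis1, and Otx2 was at 0 to 3.92 against 0 to 5.72 CPM. The count of 26 rests on the later days. It was 13 without the day 6 JEGS library, 15 without the day 6 Minus-Glis1 library, 12 without day 6 in all arms and 9 without day 4 in all arms.

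**Figure D3:**
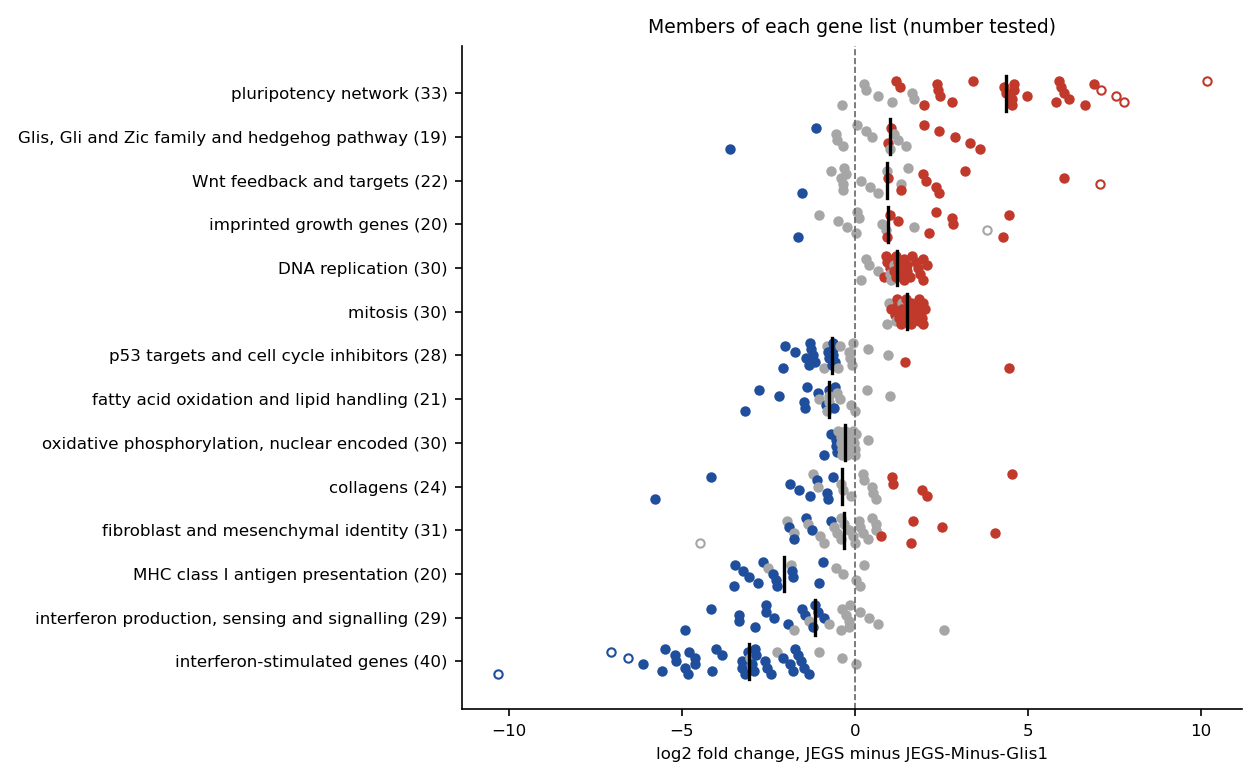
Log2 fold change of JEGS minus JEGS-Minus-Glis1 (x axis) for the tested members of 14 gene lists (y axis, number tested in brackets), red where called higher in JEGS, blue where called lower and grey where not called; open points are genes with no count in one arm, whose fitted value is no bound. Black bars mark the list medians and the dashed line the median of all genes tested; pluripotency genes reach medians of 4.38 and interferon-stimulated genes of -3.05.

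Genes placed downstream of Glis1 by earlier reprogramming work, and hedgehog genes, were next. Of 17 tested genes placed downstream of Glis1, 8 were higher in JEGS and 1 was lower, the delivered Esrrb. The median was 1.25, and the shares of all genes called were 9.86% and 10.0%. In the contrast with the other leave-out arms 1 was higher and 4 were lower in Minus-Glis1, beside 14.1% and 10.2% of all genes. Foxa2, a forkhead factor of endoderm, was at 6.95, 25.7 and 20.6 CPM in JEGS against 0, 0.436 and 2.29 CPM, a log2 fold change of 4.21 ± 0.54 (adjusted p = 7.2e-05). Mycl, a Myc family member, was at 4.63, 13.4 and 16.2 CPM against 1.8, 1.31 and 0.381 CPM. Myc itself was at 88.0, 42.5 and 51.2 CPM against 67.2, 68.9 and 66.7 CPM and did not pass (adjusted p = 0.608). The groups did not overlap for Foxa2 and Mycl and did for Myc. Of the Wnt ligands on the list, Wnt4 and Wnt8a were called, at adjusted p = 0.0391 and 0.0273 by edgeR. Leaving out single libraries ended both calls, for Wnt4 in 5 of 6 cases and for Wnt8a in 4 of 6. The count of 8 was 5 without the day 4 JEGS library and 4 without either the day 6 JEGS or the day 4 Minus-Glis1 library. It includes Nanog, also on the pluripotency list, and Foxa2, also on that of primitive endoderm, so the counts of these lists are not separate.

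Of 19 genes of the Glis, Gli and Zic family and the hedgehog pathway, 7 were higher in JEGS and 2 lower, beside 9.86% and 10.0% of all genes, with a median of 1.02. Set against the other leave-out arms, Minus-Glis1 had 3 of them higher and 7 lower, beside 14.1% and 10.2% of all genes. The ligand Dhh went against the receptor Ptch1, though Dhh overlaps Rhebl1 on the same strand and is uncertain. Dhh was at 7.72, 7.84 and 3.75 CPM in JEGS and 90.6, 68.0 and 80.5 CPM without Glis1, a log2 fold change of -3.61 ± 0.39 (adjusted p = 1.54e-05), and at 0 to 4.32 CPM in the other leave-out arms. Ptch1, which is also a target of the pathway, was higher in JEGS, at 106, 181 and 90.0 CPM against 14.4, 12.2 and 22.1 CPM, a log2 fold change of 2.88 ± 0.40 (adjusted p = 0.000143). The transcription factor Gli1, another known target, was at 0, 1.12 and 2.50 CPM in JEGS and at 0.60, 0.436 and 0.381 CPM without Glis1, too few counts for a difference to be detectable. Zic2 was at 6.18, 9.51 and 18.1 CPM against 0, 1.31 and 1.91 CPM. Among the relatives of Glis1, Glis2 was at 264, 215 and 111 CPM against 186, 188 and 180 CPM and did not pass, while Glis3 gave a log2 fold change of 0.94 ± 0.30 (adjusted p = 0.0374), a call lost without any 1 of 5 libraries and kept only without the day 6 JEGS library. Without day 4 in all arms 2 genes were called higher. Only 1 gene was called lower without the day 2 JEGS or the day 2 or day 4 Minus-Glis1 library.

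Interferon-stimulated genes formed the largest group lower in JEGS, that is, higher without Glis1. Of 43 genes, 40 were tested, and 35 were lower in JEGS and none higher, beside a background of 10.0%; the median log2 fold change was -3.05. Their levels without Glis1 were higher on days 4 and 6 than on day 2. Ifit1, which binds foreign RNA, was at 2.32, 5.04 and 3.75 CPM in JEGS and 18.0, 156 and 332 CPM without Glis1, a log2 fold change of -5.20 ± 0.76 (adjusted p = 0.000228). Ifi44 was at 0.772, 2.24 and 4.37 CPM against 14.4, 149 and 216 CPM, and Oas2, a sensor of double-stranded RNA, at 0, 0 and 1.25 against 4.2, 41.9 and 53.8 CPM. Usp18, which removes the ubiquitin-like Isg15 from proteins, had no count in JEGS and was at 6.00, 79.4 and 165 CPM without Glis1, at least 148-fold lower in JEGS. In each of these 4 genes all JEGS values lay below all Minus-Glis1 values, while the arms did not overlap in 34.4% of all genes. The helicase Ddx60 was at 0, 0 and 0.625 CPM against 1.20, 14 and 17.5 CPM, and its call was lost without the day 4 JEGS library or either later Minus-Glis1 library. Ifit3b shares reads with its near copy Ifit3 and is uncertain.

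Promoters of these genes are shown because the members moved together and share a known element, the interferon response element, bound by Stat and Irf factors. The core searched here was GAAANNGAA on both strands, with overlapping matches counted, in RefSeq promoters of GRCm38.p6 from 250 bases before to 50 after the start. A promoter was found for 26 of the 35 genes called lower, and 18 of them (69.2%) held the core. Among all tested genes with a promoter, 1007 of 11872 (8.48%) held it. For the whole list, called or not, 32 genes had a promoter and 21 of these (65.6%) held the core. The list was made of known interferon-stimulated genes, so the share belongs to the list and does not set the called genes apart. The 6 sequences below run 5′ to 3′ on the gene's strand from 150 to 21 bases before the start, with matches on either strand in capitals. They are the called genes with the largest differences that hold the core there and whose stretch overlaps no annotated exon. Isg15 lies at chr4:156200839-156200968 on the minus strand, Ifit3 at chr19:34583379-34583508 and Ifit3b at chr19:34607807-34607936 on the plus strand, Rsad2 at chr12:26456473-26456602 on the minus strand, Igtp at chr11:58199406-58199535 and Gbp3 at chr3:142559894-142560023 on the plus strand.
Isg15: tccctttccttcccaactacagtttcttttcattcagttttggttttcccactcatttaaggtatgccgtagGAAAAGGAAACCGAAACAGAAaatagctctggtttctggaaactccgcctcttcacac
Ifit3: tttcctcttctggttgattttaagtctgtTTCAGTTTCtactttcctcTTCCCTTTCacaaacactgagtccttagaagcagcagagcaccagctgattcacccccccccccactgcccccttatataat
Ifit3b: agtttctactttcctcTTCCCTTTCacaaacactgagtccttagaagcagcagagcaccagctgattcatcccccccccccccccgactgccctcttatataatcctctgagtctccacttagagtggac
Rsad2: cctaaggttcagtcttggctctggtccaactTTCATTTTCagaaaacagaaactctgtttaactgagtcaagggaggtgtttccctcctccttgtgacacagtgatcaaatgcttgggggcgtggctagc
Igtp: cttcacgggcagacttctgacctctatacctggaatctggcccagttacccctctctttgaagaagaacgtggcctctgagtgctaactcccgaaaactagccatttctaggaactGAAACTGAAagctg
Gbp3: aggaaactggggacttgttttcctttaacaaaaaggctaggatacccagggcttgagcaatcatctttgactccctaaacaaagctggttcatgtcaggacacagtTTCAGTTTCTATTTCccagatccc

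Isg15 held 3 overlapping matches in a row, with first bases 78, 72 and 66 bases before the start. Ifit3 held 2 separate matches, at 121 and 102 bases, and Ifit3b held 1 in this stretch, at 134 bases. Gbp3 held 2 that overlap, Rsad2 1 at 119 bases and Igtp 1 at 34 bases. A match is a description of the letters and not a binding site. The levels of these genes, named for their promoters after the values were seen, moved alike: Isg15 was at 3.86, 1.12 and 1.25 CPM in JEGS against 8.4, 84.2 and 167 CPM, Rsad2 at 0.772, 0.56 and 0.625 against 3.0, 14.8 and 53.8 CPM, and Igtp at 4.63, 6.16 and 3.75 against 30.0, 195 and 236 CPM. The core of the Glis binding site, TGGGGGGT, was in none of the 26 promoters, in 1 of 8 promoters found for the 12 genes highest in JEGS (Dcpp2) and in 226 of 11872 (1.90%) of all tested genes. The pattern TGANTCA covers the AP-1 site, the kind of site Jdp2 is known to bind, but leaves its middle base free. It was in 9 of the 26 (34.6%) and in 6.41% of all tested genes. The whole list, called or not, held it in 11 of 32 (34.4%). The Rsad2 stretch above holds the AP-1 site itself, as TGAGTCA. The pattern also takes other sequences, such as TGATTCA in the Ifit3 and Ifit3b stretches. A part of Jdp2 was not tested. The ERR site TCAAGGTCA was in none of the 26 and in 0.32%.

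Sensors and signal transducers of the pathway followed in part. Of 29 tested, 15 were lower in JEGS, beside 10.0% of all genes, and none higher, with a median of -1.14. Irf7, the factor that amplifies interferon production, was at 0.772, 2.80 and 7.50 CPM in JEGS and 13.2, 110 and 276 CPM without Glis1, a log2 fold change of -4.92 ± 0.82 (adjusted p = 0.00061). The transducer Stat2 was at 13.1, 27.4 and 20.6 CPM against 81.0, 279 and 298 CPM, a log2 fold change of -3.34 ± 0.33 with no overlap of the groups. The receptor Ifnar1 was at 89.6, 79.5 and 51.2 CPM against 79.8, 59.8 and 58.7 CPM and did not pass, nor did Irf3 or Tbk1. The ligand Ifnb1 did not reach the minimum for the test, and over all 8 days without Glis1 it was at 0.763 CPM at most, so transcripts of the ligand itself were near the limit of 1 count per library.

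MHC class I genes display peptides to T cells and are known to respond to interferon. They were lower in JEGS for 13 of 20, beside 10.0% of all genes, with none higher and a median of -2.06. H2-T23 was at 2.32, 2.24 and 1.25 CPM against 6.60, 26.2 and 37.0 CPM, though shared reads within the H2 family make single members uncertain. Outside that family, the immunoproteasome subunit Psmb8 was at 4.63, 5.60 and 5.0 CPM against 9.0, 68.5 and 125 CPM, a log2 fold change of -3.49 ± 0.54 (adjusted p = 0.000309). The peptide transporter Tap1 was at 10.0, 7.28 and 6.25 CPM against 41.4, 66.3 and 95.3 CPM. In neither Psmb8 nor Tap1 did the groups overlap, beside 34.4% of all genes without overlap. The chaperones Calr, Canx and Pdia3, which are not specific to this pathway, did not pass. The same 3 gene groups were higher in Minus-Glis1 than in the other leave-out arms, in 37 of 40, 17 of 29 and 14 of 20 genes, beside a background of 14.1%. Without day 4 in all arms the counts lower in JEGS were 15 interferon-stimulated and 7 MHC class I genes, and limma-trend on log2(TPM + 1) called 22 interferon-stimulated genes.

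**Figure D4:**
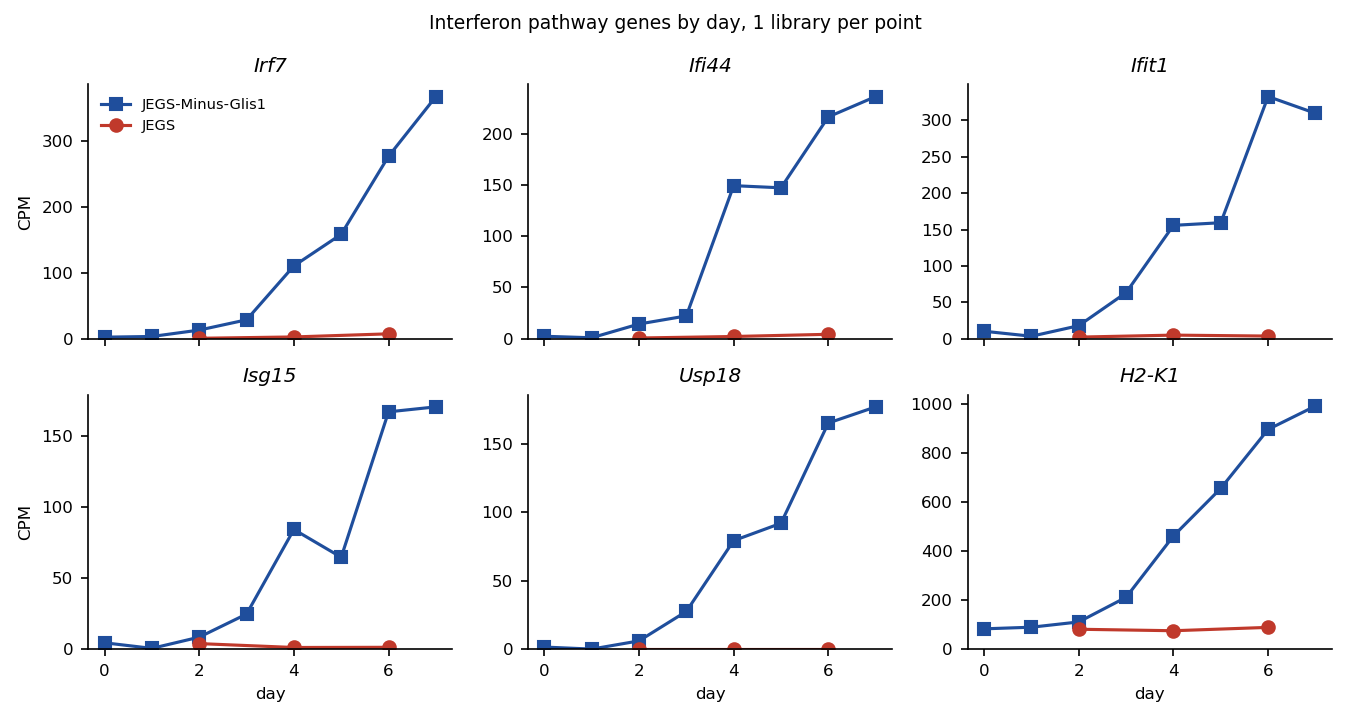
CPM (y axis) by day (x axis) of 6 genes of the interferon and MHC class I lists in JEGS-Minus-Glis1 on days 0 to 7 (blue squares) and in JEGS on days 2, 4 and 6 (red circles), 1 library per point. Without Glis1 Irf7 stands at 2.46 CPM at day 0 and at 367 CPM at day 7, and H2-K1 at 82.8 and 994 CPM, while the JEGS points stay near the bottom of each panel.

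The Minus-Glis1 arm has libraries for every day, which gives the course. Ifit1 was at 10.4, 3.50, 18.0 and 63.3 CPM on days 0 to 3 and at 156, 159, 332 and 310 CPM on days 4 to 7. Usp18 had 1.48 CPM on the first of these days, none on the next and 177 CPM on the last. The levels were lowest on days 0 and 1 and highest on days 6 and 7. Macrophage markers, a type that could carry such genes, summed to 30.0 to 43.5 CPM over 15 genes without Glis1, 17.8 to 25 CPM in JEGS and 19.9 to 85.8 CPM in the other leave-out arms, with Cx3cr1 at 0 in both arms. Of the 11 tested C1qb was called, lower in JEGS at adjusted p = 0.0465 by edgeR. That call was lost without any 1 of 5 libraries and kept only without the day 2 JEGS library. The part of such cells in the interferon result was not tested.

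Genes of cell division were higher in JEGS. Of 30 DNA replication genes 23 were higher and of 30 mitosis genes 26, beside 9.86% of all genes. None was lower in either list, and the medians were 1.21 and 1.51. Mcm6, a subunit of the replicative helicase, was at 90.3, 106 and 212 CPM in JEGS and 32.4, 28.8 and 32.4 CPM without Glis1, a log2 fold change of 2.08 ± 0.26 (adjusted p = 5.42e-05). Its partners Mcm3 and Mcm5 gave 1.88 ± 0.31 and 1.96 ± 0.41. The mitotic kinase Plk1 was at 84.9, 69.4 and 153 CPM against 37.2, 17.4 and 21.4 CPM, and the kinetochore protein Cenpf at 47.1, 47.0 and 101 against 21.6, 13.52 and 15.3 CPM. In each of these genes day 6 of JEGS was the highest library and the groups did not overlap, as in 34.4% of all genes. The median log2 ratio of mitosis genes, with 1 CPM added, was 0.64 on day 2, 1.33 on day 4 and 2.34 on day 6. In the contrast with the other leave-out arms 10 replication and 8 mitosis genes were lower in Minus-Glis1, beside a background of 10.2%, and 1 and 0 were higher. The mean log2(CPM + 1) of mitosis genes on day 6 was 4.32 without Glis1 and 3.01 without Sall4, against 6.17 to 6.63 in the other 3 arms. Without the day 6 JEGS library 14 replication and 14 mitosis genes were called. Without the day 4 Minus-Glis1 library 15 replication genes were, and without its day 6 library 16 mitosis genes. Without day 4 in all arms the counts were 7 and 6.

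Inhibitors of the cell cycle and p53 targets were mostly lower in JEGS. The counts were 16 of 28 lower and 2 higher, beside 10.0% and 9.86% of all genes, with a median of -0.65. Set against the other leave-out arms, Minus-Glis1 had 14 of them higher and 3 lower, beside 14.1% and 10.2% of all genes. Cdkn1a, the p21 inhibitor and a p53 target, chosen after its values were seen, was at 1124, 756 and 347 CPM in JEGS and 2051, 1952 and 1713 CPM without Glis1, a log2 fold change of -1.43 ± 0.30 (adjusted p = 0.00358). The p15 inhibitor Cdkn2b was at 12.4, 15.1 and 8.12 CPM against 42.0, 51.0 and 59.5 CPM. The stress cytokine Gdf15 was at 62.5, 36.9 and 26.2 CPM against 131, 131 and 143 CPM. In all 3 the JEGS values lay below those without Glis1, while the arms did not overlap in 34.4% of all genes. The 2 exceptions were the imprinted p57 inhibitor Cdkn1c, described next, and the apoptosis gene Pmaip1 at 85.7, 120 and 90.6 CPM against 45.6, 23.1 and 39.7 CPM. The count of 16 was 9 without the day 6 JEGS library, 10 by limma-trend and 3 without day 4 in all arms.

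Imprinted growth genes are expressed from a single parental copy and act on embryonic growth. They were higher in JEGS for 9 of 20 and lower for 1, beside 9.86% and 10.0% of all genes. The median was 0.96, or 0.91 with the gene silent in 1 arm at its bound. Cdkn1c was at 1977, 1103 and 584 CPM in JEGS and 51.0, 50.2 and 49.95 CPM without Glis1, a log2 fold change of 4.45 ± 0.36 (adjusted p = 1.27e-06). The growth factor Igf2 was at 4195, 3276 and 2498 CPM against 772, 362 and 326 CPM, and its noncoding neighbour H19 at 12225, 9740 and 8134 CPM against 2021, 1079 and 1233 CPM. Nnat, a small membrane proteolipid, was at 165, 210 and 212 CPM against 10.8, 3.93 and 15.6 CPM. No value of these 4 genes overlapped between the arms, as in 34.4% of all genes. The other leave-out arms stood with JEGS, at 609 to 2683 CPM for Cdkn1c, 2472 to 5171 CPM for Igf2 and 5898 to 14244 CPM for H19. Minus-Glis1 was lower than those arms by log2 fold changes of -4.67 ± 0.34 for Cdkn1c, -3.13 ± 0.20 for Igf2 and -2.90 ± 0.28 for H19. The exception was Meg3, lower in JEGS at -1.64 ± 0.45 (adjusted p = 0.0175), a gene named after its values were seen. Its call was lost without the day 2 or day 4 library of either arm, by limma-trend and without a day term.

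Genes of energy metabolism were lower in JEGS in part. Of 21 genes of fatty acid oxidation and lipid handling, 11 were lower, beside 10.0% of all genes, and none higher, with a median of -0.74. In the contrast with the other leave-out arms 12 were higher in Minus-Glis1, beside 14.1% of all genes, and none lower. Ppara, the receptor that drives this programme, was at 3.09, 8.96 and 1.25 CPM in JEGS and 28.8, 44.5 and 44.2 CPM without Glis1, a log2 fold change of -3.18 ± 0.64 (adjusted p = 0.00243). The muscle-type carnitine transferase Cpt1b was at 19.3, 9.51 and 2.50 CPM against 74.4, 70.7 and 67.9 CPM. Pdk4, which restrains glucose oxidation, was at 61.8, 61.6 and 30.0 CPM against 160, 254 and 290 CPM, and the dehydrogenase Acadl at 95.8, 123 and 64.3 against 223, 307 and 253 CPM. Esrrb, whose family is known to bind such genes, was itself higher without Glis1, and its part in this difference was not tested. The count of 11 was 7 without the day 6 JEGS or the day 4 Minus-Glis1 library, 6 by limma-trend and 5 without day 4 in all arms.

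Glycolysis genes divided, with 3 of 23 higher and 3 lower in JEGS, beside 9.86% and 10.0% of all genes, and a median of -0.06. The lactate exporter Slc16a3 was at 13.9, 11.2 and 151 CPM in JEGS against 1.20, 0.872 and 1.91 CPM, and the glucose transporter Slc2a3 at 170, 242 and 569 against 70.8, 63.7 and 96.5 CPM. Hexokinase Hk1 went the other way, at 141, 128 and 110 CPM against 479, 427 and 504 CPM, a log2 fold change of -1.89 ± 0.24 (adjusted p = 6.23e-05). Nuclear genes of oxidative phosphorylation were lower in 5 of 30, with a median of -0.28, and mitochondrially encoded genes in 2 of 13, with 1 higher and a median of -0.34. These shares, beside 10.0% of all genes called lower, moved with single libraries. Leaving out 1 library of either arm gave 1 to 3 nuclear genes called lower. The 2 mitochondrial genes became 0 without the day 4 Minus-Glis1 library and by limma-trend, and 1 without the day 2 or day 6 JEGS or the day 6 Minus-Glis1 library. The 1 higher became 0 without the day 6 JEGS or either later Minus-Glis1 library. In the contrast with the other leave-out arms 12 of 30 nuclear and 8 of 13 mitochondrial genes were higher in Minus-Glis1, beside 14.1% of all genes. None was lower. Sterol and fatty acid synthesis genes showed 1 higher and 1 lower of 26, the reductase Dhcr7 at 1.45 ± 0.24 and the desaturase Scd1 at -2.01 ± 0.30.

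Fibroblast genes showed no common direction. Of 31 fibroblast and mesenchymal genes 5 were higher and 5 lower, beside 9.86% and 10.0% of all genes, with a median of -0.31. Their summed level was 4058 to 4443 CPM in JEGS, 3411 to 3880 CPM without Glis1 and 3921 to 10220 CPM in the other leave-out arms. The homeobox factor Msx1 was at 23.9, 34.1 and 31.2 CPM in JEGS against 4.8, 3.49 and 7.24 CPM, and Meox1 at 10.8, 6.16 and 35.6 against 1.8, 0.872 and 0.381 CPM. Lox, which crosslinks collagen, was at 10.0, 14.6 and 5.62 CPM against 20.4, 46.7 and 44.2 CPM, and its call was lost without the day 6 JEGS or the day 4 Minus-Glis1 library. The count of 5 lower was 3 without the day 4 or the day 6 JEGS library and 2 without the day 4 Minus-Glis1 library. Of 24 collagens 5 were higher and 9 lower, beside the same shares of all genes, with a median of -0.37. Besides Col4a3 and Col4a4, Col7a1 of anchoring fibrils was higher, at 536, 245 and 81.8 CPM against 85.2, 58.9 and 35.8 CPM, with day 6 of JEGS below day 2 of Minus-Glis1. Col8a2 was at 13.1, 9.51 and 13.7 CPM against 0.60, 0.872 and 0 CPM.

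Epithelial genes showed 4 higher and 3 lower of 29, with a median of 0.60. These counts are near the 9.86% and 10.0% called higher and lower among all genes. The 4 became 2 without the day 6 JEGS and 1 without the day 4 Minus-Glis1 library, and 7 with every library thinned to the lowest total. The keratin Krt19 was at 300, 146 and 98.7 CPM in JEGS and 4.2, 4.8 and 11.1 CPM without Glis1, a log2 fold change of 4.56 ± 0.39 (adjusted p = 1.98e-06). The tight junction gene Cldn3 was lower, at 4.63, 15.1 and 16.2 CPM against 33.0, 51.9 and 55.7 CPM. E-cadherin, Cdh1, was at 91.9, 140 and 143 CPM against 9.60, 36.2 and 46.9 CPM, without overlap, but its adjusted p rose from 0.0168 to 0.0689 without the day 6 JEGS library, 0.0679 without the day 2 and 0.0739 without the day 4 Minus-Glis1 library. Of 18 tested genes of primitive endoderm, 5 were higher and 2 lower, among them the lipid carrier Apoe at 692, 1004 and 637 CPM against 2910, 5487 and 5183 CPM. Set against the other leave-out arms, Minus-Glis1 had 3 of the 18 higher and 8 lower, beside 14.1% and 10.2% of all genes.

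Wnt and BMP genes were mixed. Of 22 Wnt feedback and target genes 9 were higher and 1 lower in JEGS, beside 9.86% and 10.0% of all genes, with a median of 0.94. In the contrast with the other leave-out arms 5 were higher and 5 lower in Minus-Glis1, beside 14.1% and 10.2% of all genes. The antagonist Wif1 was at 55.6, 43.1 and 31.9 CPM against 1.20, 0.436 and 0.381 CPM, a log2 fold change of 6.04 ± 0.45 (adjusted p = 8.65e-07). The feedback inhibitor Notum was at 20.8, 75.0 and 80.0 CPM against 4.2, 7.42 and 21.0 CPM, higher on each day though the ranges overlap. Axin2, a common readout of the pathway, was at 66.4, 132 and 127 CPM against 137, 125 and 135 CPM and did not pass. The count of 9 was 4 without the day 6 JEGS or the day 4 Minus-Glis1 library and 5 without the day 6 Minus-Glis1 library. Of 25 BMP and TGF-beta genes 4 were higher and 4 lower, beside the same shares of all genes, with a median of 0.20. Without the day 2 JEGS library 2 were higher and 2 lower, and without its day 6 library 2 were higher. Hey1, a Notch and BMP target, was at 100, 118 and 37.5 CPM against 3.6, 3.05 and 3.43 CPM, and the matrix protein Ltbp2 was lower at 8.49, 6.16 and 3.75 against 46.8, 44.5 and 22.1 CPM.

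**Figure D5:**
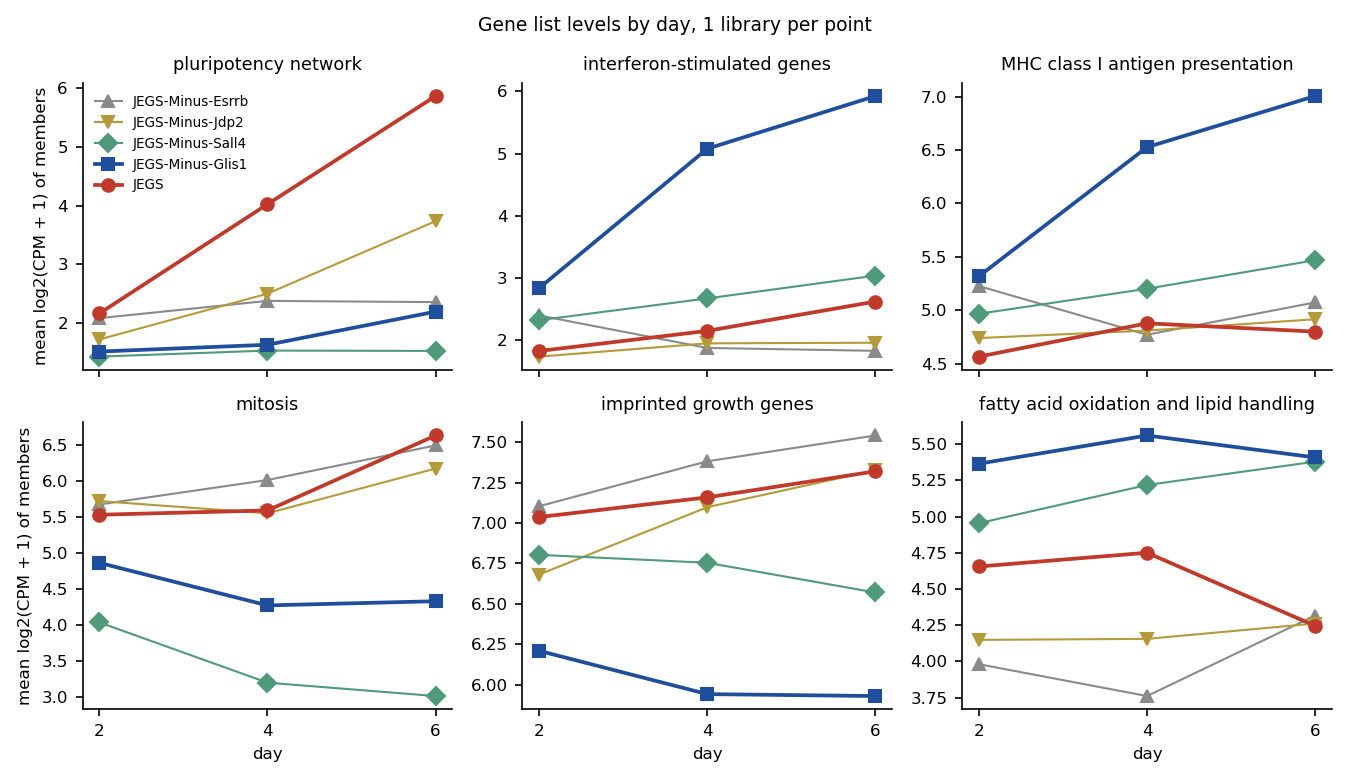
Mean log2(CPM + 1) over the members of 6 gene lists (y axis) against day (x axis) in JEGS, JEGS-Minus-Glis1 and the other 3 leave-out arms, 1 library per point. Pluripotency genes reach 5.87 on day 6 in JEGS and 2.19 without Glis1, and interferon-stimulated genes 2.62 in JEGS and 5.92 without Glis1.

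The remaining lists are read beside 9.86% of all genes called higher and 10.0% lower. SRF and YAP targets had 3 higher and 6 lower of 24 (median 0.18), AP-1 and ATF genes 0 and 1 of 19 (-0.39), and ATF4 and unfolded protein response genes 2 and 2 of 22 (0.29). Chemokines, interleukins and secreted proteases of fibroblasts had 3 higher and 1 lower of 22 (-0.10), and Hox genes 1 and 5 of 30 (-0.57). Germ line genes had 1 higher of 8 tested (0.04) and 2-cell stage genes none of 2 (0.10). Single libraries moved several counts. The 5 Hox genes became 2 without the day 4 JEGS or either later Minus-Glis1 library, and the 1 higher became 0 without either day 6 library. The 2 higher genes of the ATF4 list became 0 without the day 6 JEGS or the day 2 or day 4 Minus-Glis1 library. The 2 lower became 1 without the day 6 JEGS or the day 4 Minus-Glis1 library. The 1 lower secreted factor became 2 without the day 2 JEGS and 5 without the day 2 Minus-Glis1 library, and the 1 AP-1 gene became 3 without either. The 1 germ line gene became 0 without either later JEGS or the day 6 Minus-Glis1 library. Among the secreted factors Il11 was at 28.6, 18.5 and 8.12 CPM in JEGS against 1.20, 0.436 and 1.14 CPM, and the protease Mmp9 at 30.9, 30.8 and 37.5 against 3.0, 0.436 and 4.58 CPM. The growth factor Vegfa was lower, at 294, 236 and 182 CPM against 454, 600 and 562 CPM. Among the AP-1 related genes only Maf was called, at -1.24 ± 0.29 (adjusted p = 0.00703).

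Markers of other cell types were also counted, beside 9.86% of all genes called higher and 10.0% lower. Many of these counts are 1 or 2 genes and near those shares. Endothelial markers were higher in 5 and lower in 2 of 14, with a median of 1.72, or 0.94 with silent genes at their bound, and their summed level was 202 to 397 CPM in JEGS and 182 to 246 CPM without Glis1. Sox18 was at 14.7, 10.6 and 8.12 CPM against 0, 0.436 and 0 CPM, while Kdr, the receptor of Vegfa, chosen after its values were seen, was lower at 30.1, 23.5 and 33.7 against 123, 95.5 and 56.8 CPM. Neural markers were higher in 3 of 9 (median 1.58) and summed to 70.3 to 182 CPM in JEGS and 28.2 to 44.2 CPM without Glis1. Trophoblast markers were higher in 2 of 8 (1.98), keratinocyte markers in 1 of 6 (1.81), muscle markers in 2 of 7 with 1 lower (0.00), and cartilage and bone markers in 1 of 10 with 1 lower (0.20). Adipocyte markers were lower in 1 of 6 (-0.41), macrophage markers in 1 of 11 (-1.24) and red blood cell markers in 2 of 6 (-1.84). Without the day 6 JEGS library the higher counts became 3 endothelial, 1 neural, 1 trophoblast and 1 muscle marker. Without the day 6 Minus-Glis1 library 1 neural and 1 trophoblast marker were higher, and without its day 4 library no trophoblast or cartilage marker was. The 1 lower cartilage marker was lost without any 1 library except the day 4 JEGS library. The 2 lower red blood cell markers became 1 without any 1 library except the day 6 Minus-Glis1 library. Several defining genes had no count in JEGS or Minus-Glis1, among them Myf5 and Myog of muscle and Adipoq of fat in both arms. The part of such cells in the differences above was not tested.

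Whether the gap between the arms changed with time was tested as the difference of the day slopes. Of 16603 genes 23 (0.139%) had a slope higher in JEGS and 44 (0.265%) one lower. Tet1, which oxidises methylated cytosine, was at 11.6, 32.5 and 124 CPM in JEGS and 9.60, 9.60 and 4.58 CPM without Glis1, a slope difference of 1.12 log2 units per day. Exoc3l4 went the other way, at 186, 112 and 23.7 CPM in JEGS against 4.2, 9.16 and 10.7 CPM, and so did the amino acid transporter Slc16a10, at 189, 75.0 and 30.6 against 3.0, 8.29 and 9.15 CPM. The number of calls depended on single libraries: 1 gene passed without the day 6 JEGS library, 0 without the day 2 Minus-Glis1 library and 12 without its day 6 library.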

How the data were processed

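RNA was sequenced from 35 samples, of which 15, the libraries of days 2, 4 and 6 in 5 arms, entered the fits. The authors deposited gene tables with RSEM expected counts (estimated counts) and TPM for 54752 genes on mm10, made with bcl2fastq, Bowtie2 and RSEM, per the submitters' processing notes. Versions and the strand setting are not given in the sources used here. Of the deposited values in a library at least 93.8% were whole. No 2 libraries held identical values.

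Expected counts were rounded and scaled by TMM. Genes reaching 1 CPM in no fewer than 3 libraries were tested with edgeR 4.0.16 (R 4.3.3), quasi-likelihood F test, two-sided, with Benjamini-Hochberg adjustment over all genes and a threshold of 0.05, with arm and day as factors. Fold changes come from that fit, and the printed CPM are scaled over all 35 libraries. The SE was worked back from the test, as the absolute log2 fold change over the square root of the F statistic. The day slope was fitted per arm. DESeq2 1.42.0, limma 3.58.1 on log2(TPM + 1), other filters and left-out libraries, days and arms were alternatives. Only the edgeR fit of JEGS against Minus-Glis1 was tested on simulated data.

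Genes were named by rule: the factors; up to 4 called genes per list and 12 per direction overall with the largest fold change, a mean of at least 5 CPM and 1 sign on all days; and 5 per direction for the slope. The libraries follow from their titles, but the comparison they belong to and the gene lists were chosen with earlier results of these data known. An arm with no count was set to a floor of 3 counts over its 3 libraries; with 1 to 3 counts the pooled ratio has an exact 95% interval. Floors and intervals cover counting error only. Some genes that the rule names are not reported here.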

Additional observations from a re-analysis of the deposited data

Results flagged for a closer look

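The day slope of 10 named genes differed between JEGS and Minus-Glis1 by edgeR's test of the difference, given here in log2 units per day. The slope was lower in JEGS for Kansl2-ps by -3.69, Cdsn by -1.56, Acy3 by -1.14, Exoc3l4 by -0.99 and Slc16a10 by -0.98. The slope was higher in JEGS for Bnip3 by 2.21, Tet1 by 1.12, Alpl by 1.02, Igdcc4 by 1.02 and Zfp990 by 0.86.

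Acy3, an aminoacylase, was at 277, 86.2 and 18.1 CPM on days 2, 4 and 6 in JEGS and at 42.0, 41.4 and 66.7 CPM without Glis1, so the order of the arms turned between days 4 and 6. Bnip3, a mitophagy receptor, was at 0, 2.24 and 59.97 CPM in JEGS and 3.0, 6.11 and 5.34 CPM without Glis1. Alpl, alkaline phosphatase, was at 1.54, 47.0 and 138 CPM against 43.8, 51.5 and 69.4 CPM. Zfp990 was at 10.8, 28.0 and 114 CPM against 10.2, 10.5 and 10.7 CPM. All 10 calls were lost under limma-trend on log2(TPM + 1), and without the day 6 JEGS, the day 2 Minus-Glis1 or the day 6 Minus-Glis1 library. Without the day 2 JEGS library the slope difference of Kansl2-ps was -0.09 (adjusted p = 1 by edgeR), and its call was also lost without either day 4 library. The difference of Alpl was 0.61 (adjusted p = 0.254 by edgeR) without the day 2 JEGS library and 2.27 without the day 6 JEGS library, and its call was also lost without the day 4 Minus-Glis1 library. The call of Cdsn was also lost without the day 2 JEGS or the day 4 Minus-Glis1 library, and those of Igdcc4 and Zfp990 without the day 2 JEGS library.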

How the results depend on the processing

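Of 129 genes named by rule for JEGS against Minus-Glis1, 32 lost their call without 1 library and 63 in at least 1 alternative, and 0 reversed. Of 19 called genes named outside the rule, 11 lost it without 1 library and 17 in at least 1 alternative, and 0 reversed. The counts of JEGS against Minus-Glis1 stayed within 1.5 times under DESeq2, other size factors, no filter, other sets of libraries, no day term and thinning to the lowest total, which was chosen after seeing the data. The exceptions were 963 lower under limma-trend on log2(TPM + 1), and 369 higher and 472 lower without day 4 in all arms. Leaving out 1 library gave 855 to 1415 higher and 960 to 1549 lower. For Minus-Glis1 against the other leave-out arms, limma-trend gave 1278 higher, and 41.1% of its calls were higher against 57.9% by edgeR. Without day 4 the counts were 962 and 612, and over 32 libraries of days 0 to 7 they were 3626 and 2960. Leaving out 1 library gave 1416 to 2425 higher and 994 to 1775 lower. For the day slope, DESeq2 gave 93 lower, no filter 161 higher and 286 lower, and the 6 libraries alone 24 lower. Limma-trend called 0 higher and 0 lower, with 1927 genes at an unadjusted p under 0.05. Leaving out 1 library gave 0 to 29 higher and 0 to 77 lower; the count of 0 without the day 2 Minus-Glis1 library had 669 genes at an unadjusted p under 0.05. The cause was not tested. The arms are paired by day, with 1 library each, so no arm has a replicate on any day. The spread in the fit therefore also holds any change of the gap between arms over days. Without the day term 1458 genes were higher and 1428 lower in JEGS, and the 6 libraries alone, paired by day, gave 1273 and 1456. Depth limits genes near 1 count per library.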

Other observations

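A stretch of chromosome 7 around H19 and Cdkn1c, chosen after its values were seen, held 18 tested genes between positions 142575529 and 143503150 (GRCm38), of which 6 were higher in JEGS and 1 was lower, beside 9.86% and 10.0% of all genes tested; the region was drawn around called genes, so its count supports nothing. Besides H19, Igf2, Ins2 and Cdkn1c, the antisense gene Igf2os was at a mean of 108 CPM in JEGS and 2.85 CPM without Glis1, though reads of Igf2 and Igf2os cannot be told apart if strand was not used in counting. Th, tyrosine hydroxylase, was at means of 14.5 and 0.20 CPM. Cd81 was lower, at means of 265 and 479 CPM. The calls of Th and Cd81 were lost without the day 4 Minus-Glis1 library. Kcnq1 and the noncoding Kcnq1ot1, which lie between Cd81 and Cdkn1c, did not pass, at 72.5 against 84.0 CPM and 19.6 against 15.8 CPM.

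Among germ line genes, Rhox5, also chosen after its values were seen, was at 0, 2.24 and 38.7 CPM on days 2, 4 and 6 in JEGS and at 4.2, 2.18 and 4.58 CPM without Glis1, and did not pass.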
